A study of Mus musculus with 16 samples.

Results

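The genes described here are Gpx2 and 9 classical targets of the antioxidant transcription factor NRF2: Nqo1, Hmox1, Gclc, Gclm, Txnrd1, Slc7a11, Srxn1, G6pdx and Gsta4. They were chosen by name, and all 10 were found among the 36528 gene IDs measured. All 10 also passed the filter on low counts that left 18072 genes for testing. RNA sequencing was done on cells from mouse intestinal tumours labelled AKVPSL and AKVPL, which had been sorted into GFP-positive and GFP-negative fractions. The 4 groups were AKVPSL GFP+, AKVPSL GFP-, AKVPL GFP+ and AKVPL GFP-, with 4 libraries each and 16 in all. The design text describes the sorted cells as positive or negative for Lgr5, the receptor that marks intestinal crypt stem cells, so GFP is read here as its reporter. The labels do not spell out the genotype letters, give no age or treatment, and name no promoter that drives the recombination. In tumour models named in this way the letters usually stand for changes in tumour genes, a Villin-driven Cre that acts in the intestinal epithelium and the Lgr5 reporter, and AKVPSL adds a change in Smad4. All titles name the colon, whereas a separate tissue entry gives small intestine in 15 cases and colon in 1, the first AKVPSL GFP- replicate. Whether the replicates are different animals, different tumours or repeat preparations is not stated, so p-values cover only the variation among these libraries, some of which may be technical.

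NRF2, encoded by Nfe2l2, is held in the cytoplasm and marked for degradation by KEAP1 and the CUL3 ubiquitin ligase. Electrophiles and oxidants modify KEAP1, and NRF2 then accumulates, pairs with small MAF proteins and binds antioxidant response elements, which BACH1 occupies as a repressor. Its targets make glutathione (Slc7a11, Gclc, Gclm), recycle thioredoxin and peroxiredoxins (Txnrd1, Srxn1), supply NADPH (G6pdx), detoxify quinones and lipid aldehydes (Nqo1, Gsta4) and break down haem (Hmox1). Gpx2, the gastrointestinal glutathione peroxidase, is made in crypt epithelium and is known as a target of Wnt signalling as well as of NRF2.

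Promoter sequences are shown for the genes whose RNA differed between the genotypes, to let the letters of the antioxidant response element be seen beside the values. RefSeq windows on GRCm38.p6, from 250 bases before to 50 after a transcript start, were at hand for 7 of the 10 genes (9 windows) and not for Hmox1, Gclc or Gsta4. Both strands were searched for the core TGACNNNGC, for its variant TGAGNNNGC and for the TCF/LEF letters, which are CAAAG after any pair of bases that are adenine or thymine. In these windows no match of one motif overlapped a match of another. The core was found in 4 of the 7 genes (Gclm, Txnrd1, Srxn1, G6pdx), and in 12.4% of all 32851 windows of that length. The variant was found in 2 (Slc7a11, Srxn1) and in 17.6% of all windows, and the TCF/LEF letters in 3 (Gpx2, Txnrd1, Slc7a11) and in 16.9% of all windows. The counts are of genes with a match in any of their windows, of which Txnrd1 had 3. The percentages are of single windows, so counts and percentages are not like for like. The Gpx2 window (chr12:76795505-76795804, minus strand) is given whole because Gpx2 had the largest difference between the genotypes of the 10 genes, with its TCF/LEF letters in capitals, and the Srxn1 window (chr2:152105274-152105573, plus strand) because Srxn1 had the most matches, with the core and both variant sites in capitals.
Gpx2: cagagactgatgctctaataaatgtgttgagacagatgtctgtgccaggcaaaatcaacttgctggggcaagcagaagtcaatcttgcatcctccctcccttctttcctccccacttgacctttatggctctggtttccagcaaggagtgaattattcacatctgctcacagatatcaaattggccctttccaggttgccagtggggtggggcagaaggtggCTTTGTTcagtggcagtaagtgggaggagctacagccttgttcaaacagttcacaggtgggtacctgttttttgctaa
Srxn1: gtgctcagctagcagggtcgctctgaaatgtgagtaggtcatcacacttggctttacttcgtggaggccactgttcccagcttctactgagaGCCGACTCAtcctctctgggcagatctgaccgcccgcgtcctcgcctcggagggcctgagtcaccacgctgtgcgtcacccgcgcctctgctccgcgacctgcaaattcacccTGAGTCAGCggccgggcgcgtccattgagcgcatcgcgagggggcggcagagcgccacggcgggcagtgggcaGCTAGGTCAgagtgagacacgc
For 4 more genes the match is given in capitals with 10 bases on either side, the antioxidant core in Gclm, Txnrd1 and G6pdx and its variant in Slc7a11.
Gclm: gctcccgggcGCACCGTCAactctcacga
Txnrd1: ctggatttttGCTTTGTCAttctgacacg
G6pdx: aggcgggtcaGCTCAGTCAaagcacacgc
Slc7a11: taatgttggcGCTTTCTCAagctggagtt
In the Gpx2 window neither form of the antioxidant core was found, and the TCF/LEF letters stood at positions -28 to -22, counted from the transcript start. A match describes letters in this window and not a bound site.

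Libraries held 10881115 to 41601600 counts. Lgr5 itself exceeded its GFP- level in GFP+ cells by 1.99 ± 0.15 log2 units in AKVPSL (adjusted p = 1.17e-07) and by 2.18 ± 0.16 in AKVPL (adjusted p = 1.88e-08). Libraries labelled AKVPSL did not show less Smad4 RNA, at 0.70 ± 0.11 log2 units in GFP+ and 0.37 ± 0.11 in GFP- cells over AKVPL, and whole-gene counts cannot check an edit that leaves the transcript. The summed level of 18 epithelial markers was 13560 to 14030 CPM (counts scaled to library size) in AKVPSL GFP+, 14520 to 15810 in AKVPSL GFP-, 12920 to 15890 in AKVPL GFP+ and 10810 to 13340 in AKVPL GFP-. Markers of cells other than epithelium moved with the sort and the genotype. The sum of 12 macrophage markers was 115 to 396 CPM in AKVPSL GFP+, 701 to 3877 in AKVPSL GFP-, 421 to 1153 in AKVPL GFP+ and 2711 to 4550 in AKVPL GFP-. The sum of 12 fibroblast markers was 245 to 1159, 1821 to 3097, 616 to 1241 and 4806 to 10380 CPM in the same order of groups, and that of 12 endothelial markers was 257 to 340, 263 to 653, 169 to 212 and 557 to 988 CPM. Flt1 and Vwf led the endothelial sum in AKVPSL GFP+, averaging 110 and 97.1 CPM against 55.9 and 20.55 CPM in AKVPL GFP+. Pecam1 and Cdh5 went the other way, at 4.62 and 5.06 against 8.35 and 32 CPM. In GFP+ cells 4 of the 12 endothelial markers were called higher in AKVPSL and 3 lower (median log2 fold change -0.89). The sum of 12 other leukocyte markers was 19.2 to 62 CPM in AKVPSL GFP+ (Nkg7 at 0), 340 to 894 in AKVPSL GFP- (Nkg7 at 0), 139 to 367 in AKVPL GFP+ and 1668 to 3765 in AKVPL GFP-. Xist, an RNA made from the inactive X chromosome, averaged 5.52 CPM in AKVPSL GFP+ and 38.8 in AKVPSL GFP-, and 12.8 in AKVPL GFP+ and 99.9 in AKVPL GFP-. Apart from what is stated beside single genes below, the part of these cells in the results was not tested. AKVPSL GFP- replicates 3 and 4 stood apart from replicates 1 and 2 in macrophage markers, at 3877 and 1974 CPM against 766 and 701 CPM, so results are also given without them where a call changed or a called value moved by over 1.5 times.

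Between the genotypes the 10 genes did not move as one block. In GFP+ cells Gpx2, Slc7a11 and Gclm were higher in AKVPSL than in AKVPL, and Srxn1, Hmox1 and Gclc were lower. In GFP- cells Gpx2, Nqo1, Gsta4, Slc7a11, G6pdx and Gclm were higher and Srxn1, Gclc, Hmox1 and Txnrd1 were lower. Thus 6 of 10 genes were called (edgeR adjusted p under 0.05) in GFP+ cells, against 53% of all genes tested (24.9% higher and 28.1% lower), and 10 of 10 in GFP- cells, against 62.7% of all genes tested (32% higher and 30.7% lower). The median log2 fold change of the 10 genes was 0.09 in GFP+ cells and 0.50 in GFP- cells, where the medians over all genes were -0.05 and 0. The 4 AKVPSL libraries lay entirely above or below the 4 AKVPL libraries for 6 of the 10 genes in GFP+ cells, against 51.3% of all genes, and for 9 of 10 in GFP- cells, against 53.2% of all genes. When libraries were scaled on the epithelial markers instead of on all genes, the median of all genes in GFP- cells shifted by -0.37 log2 units, and 3 genes were higher and 4 lower in place of 6 and 4. Slc7a11, Gclm and G6pdx then lost their calls there.

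**Figure D1:**
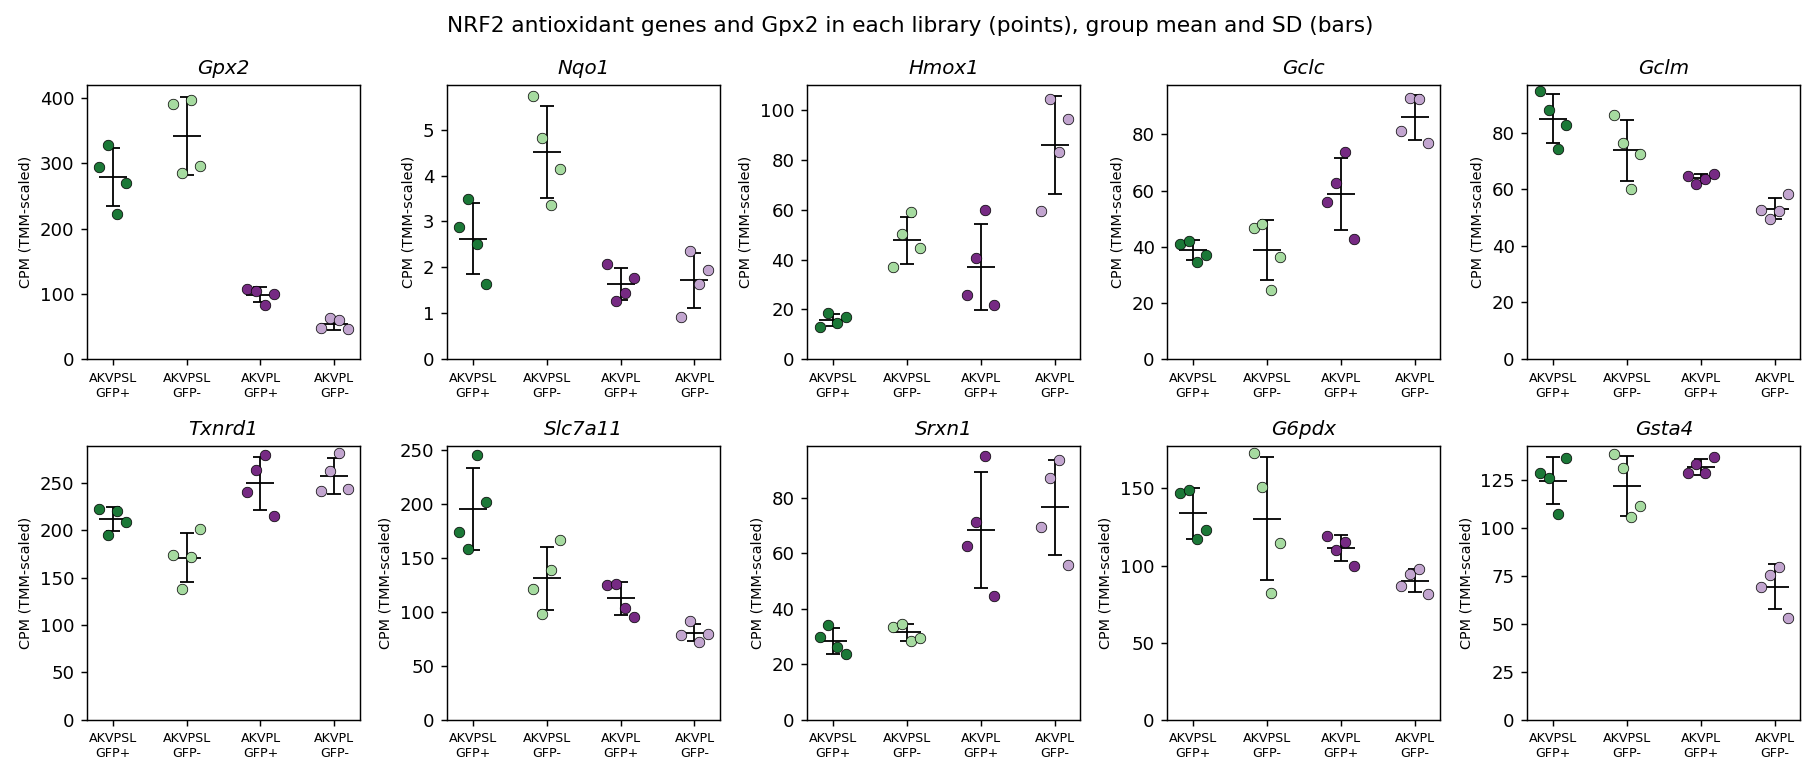
CPM (counts scaled to library size by TMM, linear axes from 0) of the 10 genes in each of the 16 libraries, with points for libraries and bars for group mean and SD (n = 4). Gpx2 stands at 223 to 397 CPM in the AKVPSL libraries and at 45.3 to 108 CPM in the AKVPL libraries, whereas Srxn1 stands at 23.6 to 34.4 CPM and 44.6 to 95.1 CPM.

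Gpx2 (Gene ID 14776, GRCm38 chromosome 12, 76792335 to 76795554) had the largest genotype difference of the set. In GFP+ cells it stood at 294, 328, 223 and 270.4 CPM in the AKVPSL libraries, against 108, 104, 82.2 and 99.9 CPM in the AKVPL libraries. In GFP- cells it stood at 391, 285, 397 and 296 CPM in AKVPSL, against 47.2, 62.6, 60.4 and 45.3 CPM in AKVPL. The lowest AKVPSL library was above the highest AKVPL library in either sort. The fold was 2.83 in GFP+ cells (log2 1.5 ± 0.15 SE, adjusted p = 8.81e-08) and 6.35 in GFP- cells (log2 2.67 ± 0.15, adjusted p = 9.13e-11), and both calls held under every alternative tried. A pseudogene, Gpx2-ps1, took 1680 counts over all libraries beside 84964 for Gpx2, and how reads were split between them cannot be told from unique counts.

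The cystine transporter and the ligase modifier subunit were also higher in AKVPSL in both sorts. Slc7a11 (Gene ID 26570, chromosome 3, 50364936 to 50499087), the light chain of the cystine and glutamate exchanger that brings in cystine for glutathione, stood at 174, 159, 246 and 202 CPM in AKVPSL GFP+ libraries, against 125, 126, 104 and 95.6 CPM in AKVPL GFP+ libraries. In GFP- cells it stood at 121, 97.7, 139 and 167 CPM in AKVPSL, against 78.8, 91.7, 72.3 and 79.9 CPM in AKVPL. The groups did not overlap in either sort, with log2 fold changes of 0.79 ± 0.15 in GFP+ cells (adjusted p = 2.87e-04) and 0.70 ± 0.16 in GFP- cells (adjusted p = 7.4e-04). The GFP- difference was 0.35 without AKVPSL GFP- replicates 3 and 4 (adjusted p = 0.057) and 0.33 with epithelial scaling (adjusted p = 0.0875). Gclm (Gene ID 14630, chromosome 3, 122245487 to 122267215) encodes the modifier subunit of glutamate-cysteine ligase, the first enzyme of glutathione synthesis. It stood at 94.6, 88.1, 74.2 and 82.8 CPM in AKVPSL GFP+ libraries, against 64.7, 61.9, 63.7 and 65.2 CPM in AKVPL GFP+ libraries. In GFP- cells it stood at 86.3, 76.3, 60.1 and 72.6 CPM in AKVPSL, against 52.6, 49.4, 52.4 and 58.2 CPM in AKVPL. Again neither sort showed an overlap, and the log2 fold changes were 0.41 ± 0.10 in GFP+ cells (adjusted p = 0.00232) and 0.48 ± 0.10 in GFP- cells (adjusted p = 5.67e-04). The GFP- difference was 0.09 with epithelial scaling (adjusted p = 0.505).

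Nqo1, Gsta4 and G6pdx were higher in AKVPSL in GFP- cells, and in GFP+ cells they did not pass the threshold. Nqo1 (Gene ID 18104, chromosome 8, 107388225 to 107403205), a quinone reductase often used as a readout of NRF2, was the scarcest of the 10 transcripts, with 23 to 175 reads per library. It stood at 2.87, 3.48, 2.50 and 1.64 CPM in AKVPSL GFP+ libraries, against 2.07, 1.27, 1.45 and 1.77 CPM in AKVPL GFP+ libraries, so the groups overlapped (log2 0.68 ± 0.29, adjusted p = 0.0544). For GFP- cells the values were 5.74, 4.82, 3.37 and 4.15 CPM in AKVPSL, against 0.921, 2.35, 1.64 and 1.95 CPM in AKVPL, with no overlap (log2 1.41 ± 0.29, adjusted p = 4.18e-04). The GFP+ value was past the threshold without AKVPSL GFP+ replicate 4 (0.85, adjusted p = 0.0208) or AKVPL GFP+ replicate 1 (0.83, adjusted p = 0.0398), with the DESeq2 test (0.68, adjusted p = 0.0427) and with only the libraries compared (0.70, adjusted p = 0.0448). Gsta4 (Gene ID 14860, chromosome 9, 78191966 to 78209349) encodes a glutathione transferase that conjugates lipid aldehydes. In GFP+ cells the groups overlapped, at 129, 126, 107 and 136 CPM in AKVPSL and 128, 133, 129 and 137 CPM in AKVPL (log2 -0.08 ± 0.12, 95% interval -0.34 to 0.17). GFP- cells held 139, 131, 106 and 111 CPM in AKVPSL, against 69.4, 75.2, 79.6 and 53.1 CPM in AKVPL (log2 0.81 ± 0.12, adjusted p = 9.98e-06). The GFP- differences kept their calls in every alternative for Nqo1 and Gsta4, but that of Gsta4 was 0.45 with epithelial scaling and that of Nqo1 0.82 with limma on log2(RPKM + 1), a scale that understates changes of scarce transcripts. G6pdx (Gene ID 14381, chromosome X, 74409483 to 74428880), the first enzyme of the oxidative pentose phosphate pathway, stood at 117 to 149 CPM in AKVPSL GFP+ and 99.8 to 119 CPM in AKVPL GFP+ libraries, which overlapped (log2 0.27 ± 0.16, adjusted p = 0.176). It stood at 173, 151, 82.5 and 115 CPM in AKVPSL GFP- libraries, against 86.7, 94.7, 98 and 81.4 CPM in AKVPL GFP- libraries. Replicate 3 of AKVPSL GFP- lay within the AKVPL range, and the log2 difference was 0.53 ± 0.16 (adjusted p = 0.00935), or 0.16 with epithelial scaling (adjusted p = 0.37). The G6pdx call in GFP- cells was also lost in all 3 limma fits on RPKM (0.38 in each, adjusted p = 0.0573 to 0.0932), and in GFP+ cells G6pdx was called when only the libraries compared were fitted (0.28, adjusted p = 0.0315). G6pdx overlaps Ikbkg, which took 25163 counts beside 50522 for G6pdx, and without a stated strand setting reads of the overlap may be split between them.

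Srxn1, Gclc and Hmox1 were lower in AKVPSL in both sorts. Srxn1 (Gene ID 76650, chromosome 2, 152105524 to 152111376), the sulfiredoxin that repairs over-oxidised peroxiredoxins, stood at 29.9, 34.3, 26.2 and 23.6 CPM in AKVPSL GFP+ libraries, against 62.8, 71.1, 95.1 and 44.6 CPM in AKVPL GFP+ libraries. In GFP- libraries the values were 33.6, 34.4, 28.4 and 29.5 CPM in AKVPSL, against 69.6, 87, 93.5 and 55.7 CPM in AKVPL. No AKVPSL library reached the lowest AKVPL library of its sort, and the folds were alike, 0.416 in GFP+ cells (log2 -1.26 ± 0.20, adjusted p = 4e-05) and 0.411 in GFP- cells (log2 -1.28 ± 0.20, adjusted p = 2.87e-05). Gclc (Gene ID 14629, chromosome 9, 77754535 to 77794489) encodes the catalytic subunit of glutamate-cysteine ligase, the partner of Gclm. It stood at 41.1, 42.2, 34.7 and 37.2 CPM in AKVPSL GFP+ libraries, against 56, 62.6, 73.9 and 42.9 CPM in AKVPL GFP+ libraries (log2 -0.60 ± 0.18, adjusted p = 0.00867). Among GFP- cells the level was 46.7, 48, 24.7 and 36.2 CPM in AKVPSL, against 81.4, 93.1, 92.7 and 77 CPM in AKVPL (log2 -1.15 ± 0.18, adjusted p = 2.87e-05). Again the groups did not overlap in either sort, although AKVPSL GFP+ replicate 2 and AKVPL GFP+ replicate 4 were close.

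Hmox1 (Gene ID 15368, chromosome 8, 75093618 to 75100593), haem oxygenase, is also abundant in macrophages that clear red cells. It stood at 13, 18.5, 14.7 and 16.9 CPM in AKVPSL GFP+ libraries, against 25.6, 40.5, 60.1 and 21.8 CPM in AKVPL GFP+ libraries (log2 -1.24 ± 0.28, adjusted p = 0.00148). For GFP- cells the values were 36.9, 50.3, 59.3 and 44.6 CPM in AKVPSL, against 59.5, 104, 83.4 and 96.6 CPM in AKVPL (log2 -0.85 ± 0.27, adjusted p = 0.0128). The highest AKVPSL GFP- library, replicate 3, nearly met the lowest AKVPL GFP- library, and the GFP- call was lost without AKVPSL GFP- replicate 1 (-0.72, adjusted p = 0.0529). Of the 12 macrophage markers 6 were lower in AKVPSL in GFP+ cells, against 28.1% of all genes tested, and 2 in GFP- cells, against 30.7%. None was higher. Of the 12 fibroblast markers 10 were lower in AKVPSL in GFP- cells and 1 in GFP+ cells, and none was higher. Of the 12 endothelial markers 4 were lower and 2 higher in GFP- cells. Of 9 other leukocyte markers tested 4 were lower and 1 higher in either sort. Of the 18 epithelial markers 11 were higher and 1 lower in GFP- cells, and 5 higher and 4 lower in GFP+ cells. The part of any of these cells in the Hmox1 difference was not tested. In these sorted bulk samples fewer cells of a type and less RNA per cell cannot be told apart. 

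Txnrd1 (Gene ID 50493, chromosome 10, 82833951 to 82897724), cytosolic thioredoxin reductase, was lower in AKVPSL in GFP- cells. In GFP+ cells it stood at 195 to 222 CPM in AKVPSL and 215 to 279 CPM in AKVPL and did not pass the threshold (log2 -0.24 ± 0.11, adjusted p = 0.0725), but did without AKVPL GFP+ replicate 4 (-0.30, adjusted p = 0.0324) and with scaling to library totals (-0.29, adjusted p = 0.0264). GFP- cells held 173, 138, 172 and 201 CPM in AKVPSL, against 242, 263, 282 and 243 CPM in AKVPL, with no overlap (log2 -0.59 ± 0.11, adjusted p = 1.33e-04, or -0.96 with epithelial scaling).

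**Figure D2:**
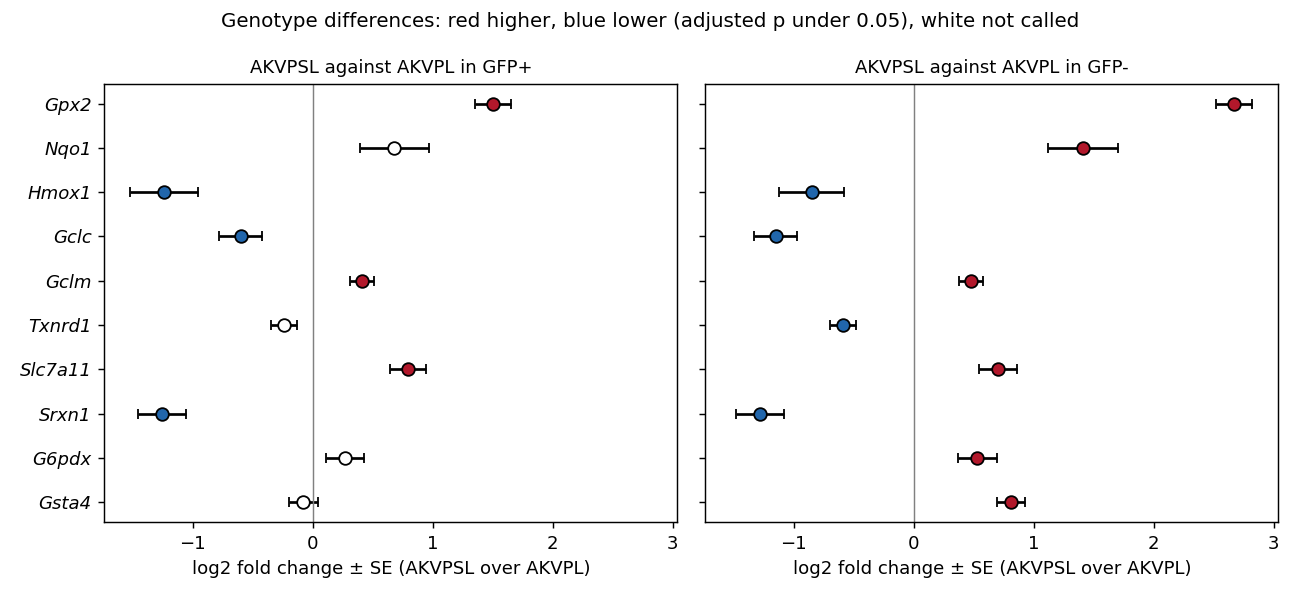
Log2 fold change ± SE of AKVPSL over AKVPL for the 10 genes in GFP+ cells (left) and GFP- cells (right), red where higher, blue where lower and white where not called (edgeR adjusted p under 0.05). In GFP+ cells 3 genes are higher, 3 lower and 4 not called, and in GFP- cells 6 are higher and 4 lower, from 2.67 for Gpx2 to -1.28 for Srxn1.

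The subunits of glutamate-cysteine ligase therefore stood in another proportion in the genotypes. The ratio of Gclm to Gclc in RPKM, the authors' length- and size-factor-adjusted level, was 4.28, 3.88, 3.97 and 4.13 in AKVPSL GFP+ libraries, against 2.15, 1.84, 1.6 and 2.83 in AKVPL GFP+ libraries. In GFP- cells it was 3.44, 2.95, 4.52 and 3.73 in AKVPSL, against 1.2, 0.985, 1.05 and 1.4 in AKVPL. Every AKVPSL library had a higher ratio than every AKVPL library. Of the summed RPKM of 6 glutathione peroxidase genes (Gpx1, Gpx2, Gpx3, Gpx4, Gpx7 and Gpx8), Gpx2 made up 51.6 ± 3.6% in AKVPSL GFP+ and 19 ± 2.4% in AKVPL GFP+, and 43.8 ± 8.3% in AKVPSL GFP- and 9.94 ± 1.1% in AKVPL GFP- (SD, n = 4). Gpx1, the ubiquitous cytosolic peroxidase, averaged 195.6 RPKM in AKVPSL GFP+ and 324 RPKM in AKVPL GFP+, where Gpx2 averaged 237 RPKM and 83.9 RPKM. In GFP- cells Gpx1 averaged 327 ± 140 RPKM in AKVPSL and 349 ± 71.1 RPKM in AKVPL, above Gpx2 at 292 ± 51.3 RPKM and 49.1 ± 8.03 RPKM (SD). The AKVPSL GFP- libraries were divided. Gpx2 made up 51.7 and 50.2% of the sum in replicates 1 and 2, and so stood above Gpx1 there. It made up 36 and 37.3% in replicates 3 and 4. The higher AKVPSL GFP- mean of Gpx1 therefore does not hold in every library. Both proportions were chosen after the values were seen and are given as descriptions without a test, and genes with many copies, such as Gpx4, may be undercounted by unique alignment.

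**Figure D3:**
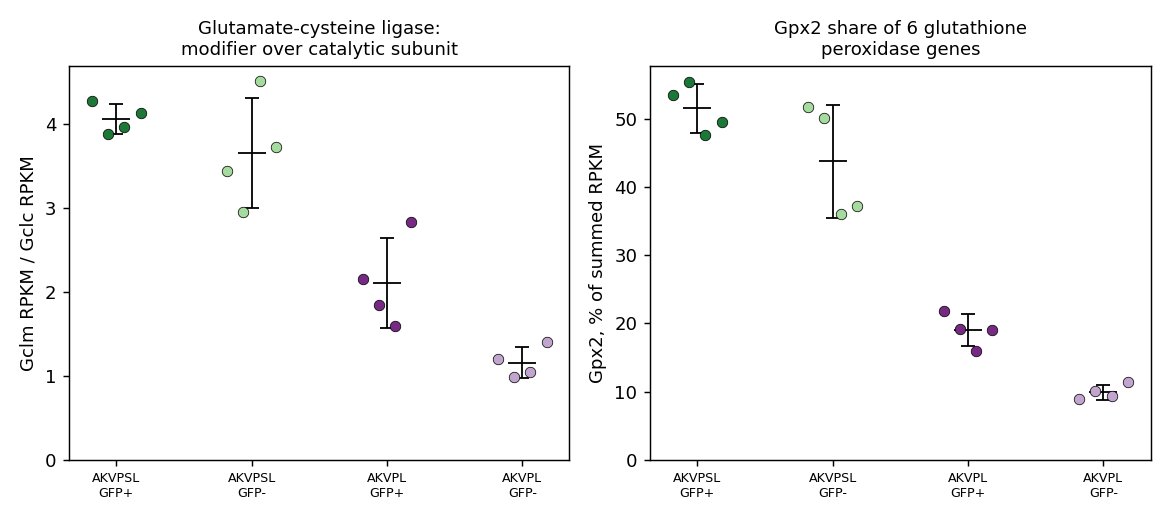
Left, the ratio of Gclm to Gclc RPKM, and right, Gpx2 as a percentage of the summed RPKM of 6 glutathione peroxidase genes, in each of the 16 libraries (points) with group mean and SD (n = 4). Ratios are 2.95 to 4.52 in AKVPSL and 0.985 to 2.83 in AKVPL libraries, and Gpx2 shares are 36 to 55.5% and 8.86 to 21.8%.

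The sort comparison asked how the genes stood in GFP+ (Lgr5-high) against GFP- cells of the same genotype. In AKVPSL, Slc7a11 and Txnrd1 were higher in GFP+ cells and Hmox1 and Nqo1 were lower. In AKVPL, Gsta4, Gpx2, Slc7a11 and Gclm were higher in GFP+ cells and Hmox1 and Gclc were lower. This was 4 of 10 genes in AKVPSL, against 47% of all genes tested (22.4% higher and 24.6% lower), and 6 of 10 in AKVPL, against 39.1% of all genes tested (22.6% higher and 16.5% lower). These calls are of the unpaired edgeR test. With the replicate block, which pairs the sorts by number, they were kept. Gclm was then also called higher in AKVPSL (adjusted p = 0.0318) and G6pdx in AKVPL (adjusted p = 0.0356). The median log2 fold change was 0.01 in AKVPSL and 0.11 in AKVPL for the 10 genes, and -0.01 and 0.14 for all genes. The sorted groups did not overlap for 1 gene in AKVPSL and 6 in AKVPL, against 39.1% and 41.2% of all genes. The AKVPL split depended on the scaling: 2 genes were higher and 4 lower with epithelial scaling, where the median of all genes shifted by -0.34, and 2 were higher and 2 lower with DESeq2 size factors.

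Hmox1 was lower in GFP+ cells of both genotypes, by the library values given above. Its log2 fold change was -1.60 ± 0.28 in AKVPSL (adjusted p = 3.19e-04), where the groups did not overlap, and -1.21 ± 0.27 in AKVPL (adjusted p = 0.00257), where they overlapped by AKVPL GFP+ replicate 3. Of 12 macrophage markers 10 were lower in GFP+ cells in AKVPSL and 8 in AKVPL, against 24.6% and 16.5% of all genes tested. None was higher. Fibroblast markers were lower for 12 of 12 in AKVPSL and 11 of 12 in AKVPL, and endothelial markers for 9 and 11 of 12. In AKVPSL 1 endothelial marker was higher. Of 9 other leukocyte markers tested, 7 were lower in each genotype. The part of any of these cells in the Hmox1 difference was not tested. Without AKVPSL GFP- replicates 3 and 4 the AKVPSL difference of Hmox1 was -1.44 (adjusted p = 0.00665). Slc7a11 was higher in GFP+ cells of both genotypes, by 0.57 ± 0.15 in AKVPSL (adjusted p = 0.00541) and 0.48 ± 0.15 in AKVPL (adjusted p = 0.0202). The AKVPL call was lost without AKVPL GFP+ replicate 1 (0.43, adjusted p = 0.0608) or 2 (0.43, adjusted p = 0.0582) or AKVPL GFP- replicate 3 (0.43, adjusted p = 0.0594), and was 0.13 with epithelial scaling (adjusted p = 0.595). It was kept in 3 of 10 other settings and also lost with DESeq2 size factors (0.38, adjusted p = 0.0662), the DESeq2 test, no filter on low counts and all 3 limma fits (0.34 to 0.38 over these DESeq2 and limma fits). Without AKVPSL GFP- replicates 3 and 4 the AKVPSL difference of Slc7a11 was 0.86 (adjusted p = 5.62e-04).

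**Figure D4:**
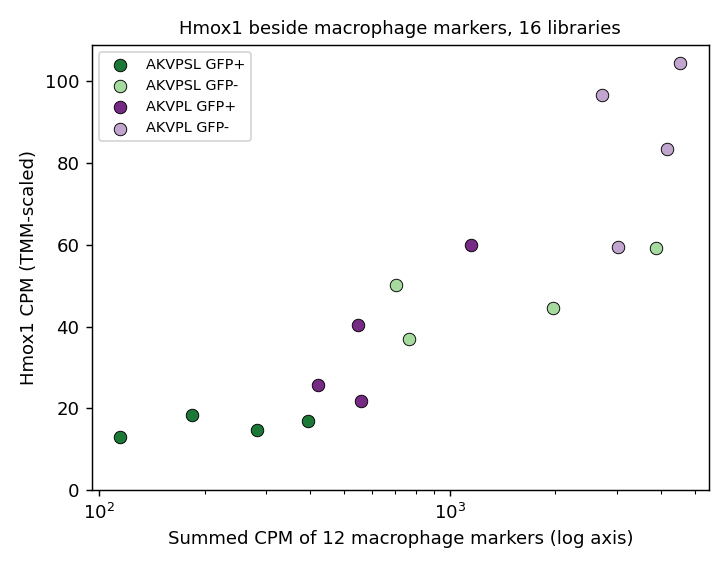
Hmox1 CPM (linear axis) against the summed CPM of 12 macrophage markers (log axis), 1 point per library and 1 colour per group. AKVPSL GFP+ libraries lie lowest on both axes, at 13 to 18.5 CPM of Hmox1 and 115 to 396 CPM of markers, and AKVPL GFP- libraries hold 2711 to 4550 CPM of markers, a range that also takes in AKVPSL GFP- replicate 3 at 3877 CPM.

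Gpx2 and Gsta4 differed between the genotypes in their sort effect, and they were the only genes of the 10 called in that test, which called 20.7% of all genes (7.01% higher and 13.7% lower). In AKVPSL the sorted groups overlapped, with log2 fold changes of -0.30 ± 0.14 for Gpx2 (adjusted p = 0.0979) and 0.03 ± 0.12 for Gsta4 (95% interval -0.22 to 0.29). In AKVPL, GFP+ cells held more than GFP- cells of Gpx2 (log2 0.87 ± 0.15, adjusted p = 1.51e-04) and of Gsta4 (0.92 ± 0.12, adjusted p = 9.94e-06), and neither gene's groups overlapped. The sort effect in AKVPSL minus that in AKVPL was -1.17 ± 0.20 for Gpx2 (adjusted p = 9.02e-04) and -0.89 ± 0.17 for Gsta4 (adjusted p = 0.00135), and both calls held under every alternative tried. The Gpx2 value in AKVPSL passed the threshold without AKVPSL GFP+ replicate 2 (-0.38, adjusted p = 0.0493) or AKVPSL GFP- replicate 2 (-0.37, adjusted p = 0.0494) or 4 (-0.44, adjusted p = 0.0234). With the replicate number as a block, which pairs GFP+ and GFP- cells, Gclc (0.60, adjusted p = 0.0191) and Txnrd1 (0.37, adjusted p = 0.0422) were called as well, which made 4 genes. Both were called with epithelial scaling too (Gclc 0.91, adjusted p = 0.00789, and Txnrd1 0.71, adjusted p = 0.00338). The Txnrd1 difference, 0.35 and not called in the unpaired edgeR test, was also called with DESeq2 size factors (0.44), the DESeq2 test (0.44, adjusted p = 0.0361), limma on log2(RPKM + 1) or + 0.1 (0.45 and 0.46), without AKVPSL GFP- replicate 4 (0.44, adjusted p = 0.0395) and without AKVPSL GFP- replicates 3 and 4 (0.62, adjusted p = 0.00899). With epithelial scaling the difference for Gsta4 was -0.55, and the AKVPL sort effects were 0.54 for Gpx2 and 0.60 for Gsta4, all still called.

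**Figure D5:**
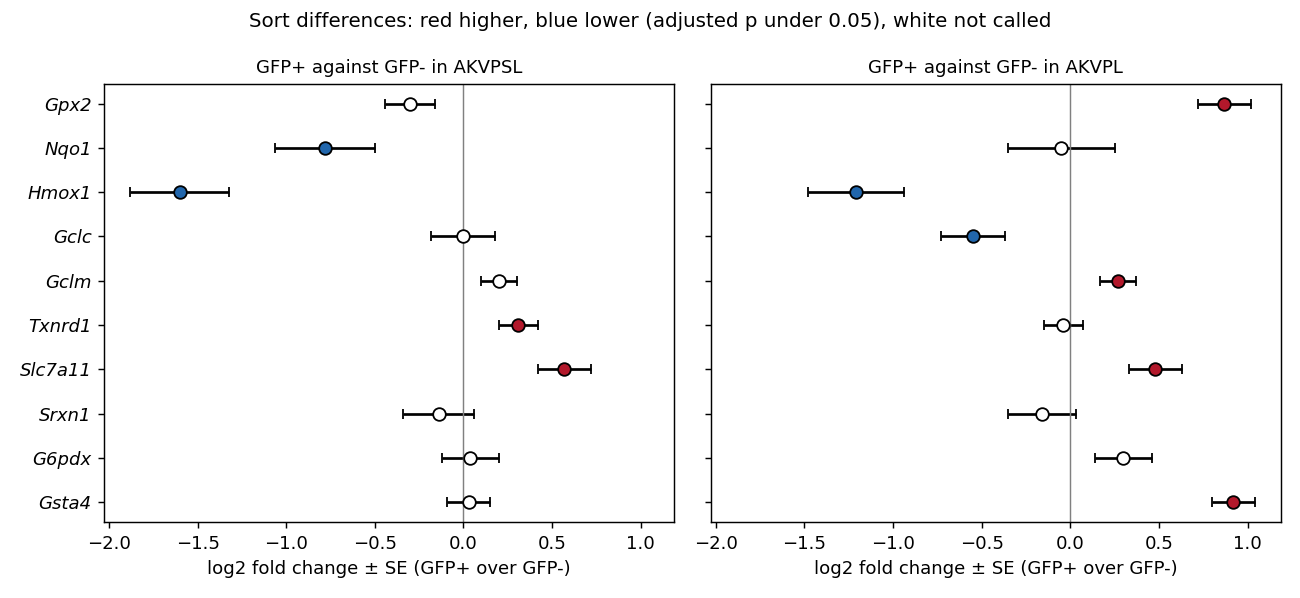
Log2 fold change ± SE of GFP+ over GFP- for the 10 genes in AKVPSL (left) and AKVPL (right), red where higher, blue where lower and white where not called (edgeR adjusted p under 0.05). Gpx2 and Gsta4 lie at -0.30 and 0.03 in AKVPSL and at 0.87 and 0.92 in AKVPL, and Hmox1 is lower in GFP+ cells in both.

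Nqo1 was lower in GFP+ than in GFP- cells of AKVPSL by the values above (log2 -0.78 ± 0.28, adjusted p = 0.0282), and the call was lost without AKVPSL GFP+ replicate 3 (-0.75), AKVPSL GFP+ replicate 4 (-0.61), AKVPSL GFP- replicate 1 (-0.72) or AKVPSL GFP- replicate 2 (-0.75). Txnrd1 was higher in GFP+ cells of AKVPSL (0.31 ± 0.11, adjusted p = 0.0269), and that call was lost without AKVPSL GFP+ replicate 1 (0.20), AKVPSL GFP+ replicate 3 (0.29), AKVPSL GFP- replicate 1 (0.24) or AKVPSL GFP- replicate 2 (0.22), without the filter on low counts (0.28) and with only the libraries compared (0.27). Without AKVPSL GFP- replicates 3 and 4 the Txnrd1 value was 0.47 (adjusted p = 0.00529). In AKVPL Gclc was lower in GFP+ cells (-0.55 ± 0.18, adjusted p = 0.0207), a call lost without AKVPL GFP+ replicate 1 (-0.52), AKVPL GFP+ replicate 4 (-0.42), AKVPL GFP- replicate 2 (-0.51) or AKVPL GFP- replicate 3 (-0.51). Gclm was at the edge of the threshold in AKVPL (0.27 ± 0.10, adjusted p = 0.0466). Its call was lost when any 1 of the AKVPL libraries but AKVPL GFP- replicate 4 was left out (0.23 to 0.31 over all 8), and it was kept in 1 of 10 other settings, with values of 0.17 with DESeq2 size factors and -0.08 with epithelial scaling. With the replicate block Gclm was called in AKVPSL (0.21, adjusted p = 0.0318) and G6pdx in AKVPL (0.30, adjusted p = 0.0356), where the unpaired test gave 0.20 ± 0.10 (adjusted p = 0.112) and 0.30 ± 0.16 (adjusted p = 0.154). Srxn1 stood at -0.14 ± 0.20 in AKVPSL (95% interval -0.57 to 0.28) and -0.16 ± 0.19 in AKVPL (95% interval -0.58 to 0.26). With epithelial scaling the AKVPL sort effects of Srxn1 (-0.50, adjusted p = 0.0202) and of Txnrd1 (-0.39, adjusted p = 0.00817, against -0.04 uncalled) were called lower in GFP+ cells, and that of Gclc was -0.90.

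In RPKM, which allows levels of different genes to be set side by side, Gpx2 was the most abundant of the 10 transcripts in AKVPSL cells, at 237 ± 37.6 RPKM in GFP+ and 292 ± 51.3 RPKM in GFP- cells (SD, n = 4). Gsta4 was the most abundant in AKVPL cells, at 125 ± 4.31 RPKM in GFP+ and 70.5 ± 11.7 RPKM in GFP- cells, where Gpx2 stood at 83.9 ± 9.04 and 49.1 ± 8.03 RPKM. Nqo1 was lowest in each group, at 0.960 to 2.66 RPKM on average. Across the 4 groups the mean CPM of Gpx2 spanned 6.36-fold and that of Hmox1 5.46-fold, while Txnrd1 and G6pdx spanned 1.5-fold and 1.49-fold. Gpx2 was ordered AKVPSL GFP-, AKVPSL GFP+, AKVPL GFP+, AKVPL GFP- from high to low, and its AKVPSL groups did not differ beyond their spread. Srxn1 and Gclc were ordered AKVPL GFP-, AKVPL GFP+, AKVPSL GFP-, AKVPSL GFP+, and neither gene's AKVPSL groups differed beyond their spread.

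Other genes of the pathway, from lists fixed by name, were split as well. Beside the counts of this list and those below, 24.9% of all genes tested were higher and 28.1% lower in AKVPSL in GFP+ cells. In GFP- cells 32% were higher and 30.7% lower. Between sorts, 22.4% were higher and 24.6% lower in GFP+ cells in AKVPSL, and 22.6% and 16.5% in AKVPL. Whether a list departed from these shares was not tested. Of 28 tested other NRF2 targets (2 more had too few counts), 12 were higher and 3 lower in AKVPSL in GFP+ cells, and 16 were higher and 7 lower in GFP- cells (13 and 9 with epithelial scaling), with median log2 fold changes of 0.22 and 0.64. Me1, the NADPH-making malic enzyme, was higher in AKVPSL by 1.36 ± 0.11 log2 units in GFP+ cells (81.3 ± 5.43 against 31.6 ± 2.76 CPM, SD, n = 4) and by 2.28 ± 0.12 in GFP- cells (100.2 ± 14.3 against 20.5 ± 2.65 CPM). Mgst1, a microsomal glutathione transferase, was higher by 1.44 ± 0.10 and 1.53 ± 0.10 and Ugdh, which makes UDP-glucuronic acid, by 0.90 ± 0.08 and 1.13 ± 0.08 in GFP+ and GFP- cells. Blvrb, biliverdin reductase B, was lower by the test in GFP+ cells (-1.67 ± 0.13, adjusted p = 6.67e-09). Its GFP- level was also lower in AKVPSL, at 17.4 ± 3.97 against 35.1 ± 2.72 CPM (SD, n = 4), with no overlap. Between sorts these targets were 2 higher and 10 lower in GFP+ cells in AKVPSL, and 9 higher and 4 lower in AKVPL, where the split was 1 and 9 with epithelial scaling and 5 and 5 with DESeq2 size factors. Akr1b8, an aldo-keto reductase, was lower in GFP+ cells of both genotypes (-1.02 ± 0.15 in AKVPSL and -1.21 ± 0.15 in AKVPL).

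Of 10 NRF2 regulators 2 were higher and 1 lower in AKVPSL in GFP+ cells, and 3 were higher and 2 lower in GFP- cells, with 1 higher and 5 lower under epithelial scaling. Nfe2l2, which encodes NRF2 itself, averaged 134 ± 7.06 CPM in AKVPSL GFP+ and 168 ± 7.06 CPM in AKVPL GFP+ (log2 -0.33 ± 0.10, adjusted p = 0.012), and 143 ± 5.21 CPM in AKVPSL GFP- and 217 ± 39.1 CPM in AKVPL GFP- (log2 -0.60 ± 0.10, adjusted p = 6.1e-05). Bach1, the repressor, was lower in AKVPSL in GFP- cells (-1.05 ± 0.20, adjusted p = 2.24e-04). Rbx1, a subunit of the ligase that marks NRF2, was higher in AKVPSL by 0.57 ± 0.10 in GFP+ and 1.10 ± 0.10 in GFP- cells. Keap1, outside the naming rule and looked at after its values were seen, was not called in either sort (0.06 ± 0.11 in GFP+ and 0.25 ± 0.11 in GFP- cells). These RNA levels do not measure NRF2 protein.

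ATF4 is a factor of the amino acid response that also acts on Slc7a11. Of 12 genes, Atf4 itself and targets of ATF4, 6 were higher and 1 lower in AKVPSL in GFP+ cells. In GFP- cells 10 were higher and 1 lower (8 and 2 with epithelial scaling). Slc7a5, an amino acid transporter, was higher by 2.91 ± 0.11 and 2.03 ± 0.10, and Psat1, of serine synthesis, by 2.16 ± 0.15 and 2.61 ± 0.16 in GFP+ and GFP- cells. Between sorts, 1 was higher and 7 lower in GFP+ cells in AKVPSL and 2 were higher and 5 lower in AKVPL, with Chac1, an enzyme that degrades glutathione, at -1.70 ± 0.26 and -1.70 ± 0.28. Of 13 peroxidases and dismutases 2 were higher and 6 lower in AKVPSL in GFP+ cells, and 3 were higher and 5 lower in GFP- cells (2 and 9 with epithelial scaling). The mitochondrial peroxiredoxin Prdx3 was higher (1.53 ± 0.13 and 1.76 ± 0.14) and the endoplasmic reticulum peroxiredoxin Prdx4 lower (-1.63 ± 0.16 and -1.49 ± 0.16) in GFP+ and GFP- cells. Between sorts, 1 of these 13 was higher and 8 lower in GFP+ cells in AKVPSL, and 2 were higher and 5 lower in AKVPL. Of 13 other genes of glutathione and thioredoxin handling 4 were higher and 4 lower in AKVPSL in GFP+ cells, and 4 were higher and 4 lower in GFP- cells (2 and 5 with epithelial scaling). Slc3a2, the heavy chain that pairs with Slc7a11, was higher by 1.00 ± 0.12 and 0.71 ± 0.12 in GFP+ and GFP- cells, and Gss, glutathione synthetase, was lower by the test in GFP+ cells (-1.15 ± 0.12). In GFP- cells Gss averaged 78.75 ± 13.6 CPM in AKVPSL and 102.8 ± 15.7 CPM in AKVPL (SD, n = 4).

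The genes whose log2 CPM followed the members most closely over the 16 libraries were searched among 10336 genes, as a description without a test, since the libraries form 4 groups that any gene differing between groups shares. For Gpx2 they included Ik (Pearson r = 0.990) and Cenpa (0.989). For Srxn1 they were Fst (0.954), Psd (0.953) and Arhgap17 (0.952), and for Hmox1 Gadd45b (0.976), Prnp (0.960) and Nrros (0.956).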

How the data were processed

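RNA was sequenced from 16 sorted samples. Per the submitters' processing notes, reads were aligned with GSNAP to GRCm38. Per the file headers, the deposited count of a gene is its number of uniquely aligned reads, and the deposited RPKM is adjusted by a size factor. No source used here states the strand setting or the gene lengths. Of 36528 NCBI Gene IDs, 31049 (85%) matched symbols in a RefSeq gene table of GRCm38.p6, and the 5479 others stayed in the tests. Groups and replicate numbers came from the sample titles. Over 24 pairs of libraries of a group, chi-square per degree of freedom was 9.05 to 73.6 (1 is sampling noise alone), so none was counted as a repeat.

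Counts were tested with edgeR 4.0.16 (R 4.3.3): filterByExpr (18072 genes), TMM scaling (factors 0.936 to 1.086) and 1 quasi-likelihood model with a mean per group over all 16 libraries (biological coefficient of variation 0.182; 12 residual degrees of freedom). The tests are two-sided, Benjamini-Hochberg adjustment covered every tested gene, and the threshold was 0.05. Log2 fold changes from the deposited counts are given ± SE, obtained by dividing its size by the root of F. CPM is TMM-scaled. The self-test recovered known changes in simulated counts, where few genes changed, about evenly up and down. In these data many more genes were called, so the self-test cannot vouch for calls that depend on the scaling. Alternatives were DESeq2 1.42.0, other scalings and filters, limma 3.58.1 on log2(RPKM + 1) or + 0.1, a replicate block, and leaving out each library. Epithelial scaling takes size factors from the 18 epithelial markers. Precision rests on 10881115 to 41601600 counts per library.

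Deviations from the group means of same-numbered GFP+ and GFP- libraries correlated at 0.13 to 0.55 in every pair of both genotypes, so the numbers were taken to pair the sorts, although AKVPSL replicates 3 and 4 each correlated best with the other's number. The labels do not state this pairing. The main test leaves it out, and the replicate block takes it in. Across genotypes same-numbered libraries correlated at -0.14 to 0.41, a range that overlaps that of the sorts. Replicate 2 stood at 0 in GFP+ and -0.14 in GFP- cells, and the numbers were not taken to pair the genotypes. What libraries of the same number may share across genotypes, such as a batch, is not stated. The genes, lists and tests were chosen with earlier results of these data known. All 10 genes are named, and from each other list up to 4 called genes of smallest adjusted p per comparison; the printed ones, and Keap1, which lies outside that rule, were picked after their values were seen. For likeness, genes averaging 3 or more in log2 CPM (prior count 2) were searched. RefSeq promoter sequences were searched for exact motif letters.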

Additional observations from a re-analysis of the deposited data

Results flagged for a closer look

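Gpx2 and Gsta4 differed between the genotypes in the effect of the sort, by the test of that difference itself. For Gpx2 the sort effect in AKVPSL minus that in AKVPL was -1.17 on the log2 scale (adjusted p = 9.02e-04). For Gsta4 it was -0.89 (adjusted p = 0.00135). In each of the 40 combinations of gene and group the 4 libraries were checked for one far from the others, and 0 were found.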

How the results depend on the processing

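Of 50 results (10 genes, 5 comparisons), 28 were called, and 19 of these kept direction and call under all 10 other settings, 16 left-out libraries and the removal of AKVPSL GFP- replicates 3 and 4, which was added after the data were seen. Epithelial scaling moved the share of higher calls over all genes to 11.7% from 57.8% for the sort in AKVPL, to 27.6% from 51.1% for the genotype in GFP- cells and to 84.5% from 33.8% for the difference of sort effects (DESeq2 size factors 42.1%, 44.7% and 49.2%; library totals 44.9%, 43.7% and 44.2%). For the difference of sort effects it called 4 of the 10 genes in place of 2, and the replicate block also called 4. The block changed no call other than those given for Gclm, G6pdx, Gclc and Txnrd1. In the genotype comparisons the block joined same-numbered libraries of both genotypes, although the numbers were not taken to pair them, so a call kept there adds little. The sign turned with epithelial scaling for the AKVPL sort effect of Gclm (-0.08) and G6pdx (-0.04) and for the difference of sort effects of Gclm (0.30) and G6pdx (0.10). The last for Gclm was 0.03 with DESeq2 size factors, the DESeq2 test and limma on log2(RPKM + 1), with and without filter, and on log2(RPKM + 0.1). The AKVPSL sort effect of Gsta4 was -0.01 with only the libraries compared and -0.08 without AKVPSL GFP- replicates 3 and 4, where that of G6pdx was -0.24. The cause of these changes was not tested.

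Leaving out 1 library gave 2 to 5 called genes for the sort in AKVPSL (2 without AKVPSL GFP+ replicate 3 or AKVPSL GFP- replicate 1) and 3 to 6 for the sort in AKVPL (3 without AKVPL GFP+ replicate 1 or AKVPL GFP- replicate 3), 6 to 7 and 9 to 10 between genotypes in GFP+ and GFP- cells, and 2 to 3 for the difference of sort effects. Uncalled values that crossed 0 were the AKVPSL sort effects of G6pdx (-0.13 to 0.13), Gsta4 (-0.09 to 0.10) and Gclc (-0.17 to 0.11), the AKVPL sort effects of Nqo1 (-0.28 to 0.17) and Txnrd1 (-0.10 to 0.03), and the differences of sort effects of Srxn1 (-0.14 to 0.22), Slc7a11 (-0.04 to 0.23) and Gclm (-0.15 to 0.03). With 4 libraries a group, small differences are within the spread.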
